A study of Mus musculus with 6 samples.

Results

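Pancreatic stellate cells (PSCs) are fibroblast precursors of the pancreas, and their conversion into contractile myofibroblasts is followed through the genes of the actomyosin cytoskeleton. A set of 41 such genes was examined out of 55421 genes in the deposited table: muscle actins, transgelins and calponins, myosin II and its kinase, serum response factor (SRF) and its cofactors, tropomyosins and other thin filament proteins, crosslinkers and anchors, PDZ and LIM proteins, desmin and Hspb1, and the ROCK kinases with Rhob. Members were chosen by name for their role and matched through GENCODE M21, which lists Mrtfa and Mrtfb as Mkl1 and Mkl2. The PSCs were primary lines from wild-type C57BL/6 mice of both sexes aged 8 to 12 weeks, used between passages 2 and 4, embedded in Matrigel in a transwell insert above organoids of mT3, a PDAC line from a KPC mouse. Cocultures were kept for 48 h at 21% O2 (normoxia, 3 samples) or 1% O2 (hypoxia, 3 samples), and both groups contained tumor organoids, so PSCs without tumor cells are not part of the comparison. The labels do not say whether the samples of a group were separate PSC lines, and p-values therefore measure the spread between these samples, which may be technical.

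Contraction of a nonmuscle cell runs along a short chain. Actin filaments, wrapped by tropomyosins and calponins and crosslinked by actinins and filamin, are pulled by myosin II, whose regulatory light chain is phosphorylated by myosin light chain kinase (Mylk) and by the kinases Rock1 and Rock2. Many of these genes carry CArG boxes, the sites bound by SRF, which is coactivated by myocardin and by the actin-sensing cofactors Mkl1 and Mkl2. Acta2, which encodes smooth muscle α-actin, is the usual mark of an activated stellate cell or a myofibroblastic CAF.

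The libraries held between 24749601 and 31925054 expected counts, and values below are CPM, the counts of a gene scaled to a common library size by the TMM method, with 3 counts equal to between 0.0943 and 0.122 CPM. All 10 genes of a hypoxia check list were higher at 1% O2, among them Car9, a carbonic anhydrase, at 1.77 to 2.27 CPM in normoxic and 63.0 to 73.7 CPM in hypoxic samples. Fibroblast and stellate cell markers summed to between 28578 and 35783 CPM in normoxic and between 30621 and 35514 CPM in hypoxic samples, most of it from Col1a1, Col1a2 and Col3a1, while 2 of the 12 markers were called higher (Pdgfra and Pdpn) and 2 lower (Lum and Thy1). Epithelial markers summed to 3.23 to 5.40 CPM in normoxic and 25 to 29.0 CPM in hypoxic samples. Of the 3 tested, Krt19 was called higher, from 0.715 to 22.1 CPM on average, and made up most of the hypoxic sum. Muc1 was higher in all hypoxic samples but within a fold of 1.5 (edgeR adjusted p = 0.0293), and Krt7 was not called. Of the markers not tested, Epcam and Cdh1 had at most 1 count in a sample, Cldn4 at most 3, and Krt18 and Cldn7 at most 4. Krt8 had 6 counts in normoxic replicate 1 and none elsewhere, and Prss1 and Cpa1 had none. The part of epithelial RNA in the results below was not tested. Macrophage markers were present, at summed levels of 1034 to 1837 CPM in normoxic and 528 to 960 CPM in hypoxic samples, and 9 of the 14 that were tested were called lower at 1% O2. In bulk RNA, fewer cells of a type and less RNA per cell cannot be told apart.

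Of the 41 members, 39 passed the filter on low counts, and 10 were called at 1% O2 against 21% O2, by a fold change beyond 1.5 together with a Benjamini-Hochberg adjusted p below 0.05 in the quasi-likelihood fit of edgeR over 16207 genes. The share over all tested genes was 34.2% (18.9% higher and 15.3% lower). Lower were Acta2, Actg2, Myh11, Myl9, Mylk and Pdlim3, and higher were Acta1, Tagln2, Smtn and Synpo2. A further 18 members passed the adjusted p within a fold of 1.5, which gave 11 higher and 17 lower at any fold, beside 62.7% of all tested genes (31.8% higher and 31% lower). The median log2 fold change of the 39 members was -0.16, and that of all tested genes was -0.004. The 3 hypoxic values lay wholly on one side of the 3 normoxic values in 27 members, 16 below and 11 above, beside 68.9% of all tested genes (34% below and 34.9% above). Called members were thus 25.6% of those tested, beside 34.2% of all tested genes. Members past the adjusted p at any fold were 71.8% (28.2% higher and 43.6% lower), beside 62.7% (31.8% and 31%). Whether these shares differ from those of all genes was not tested. Members moved both ways.

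**Figure D1:**
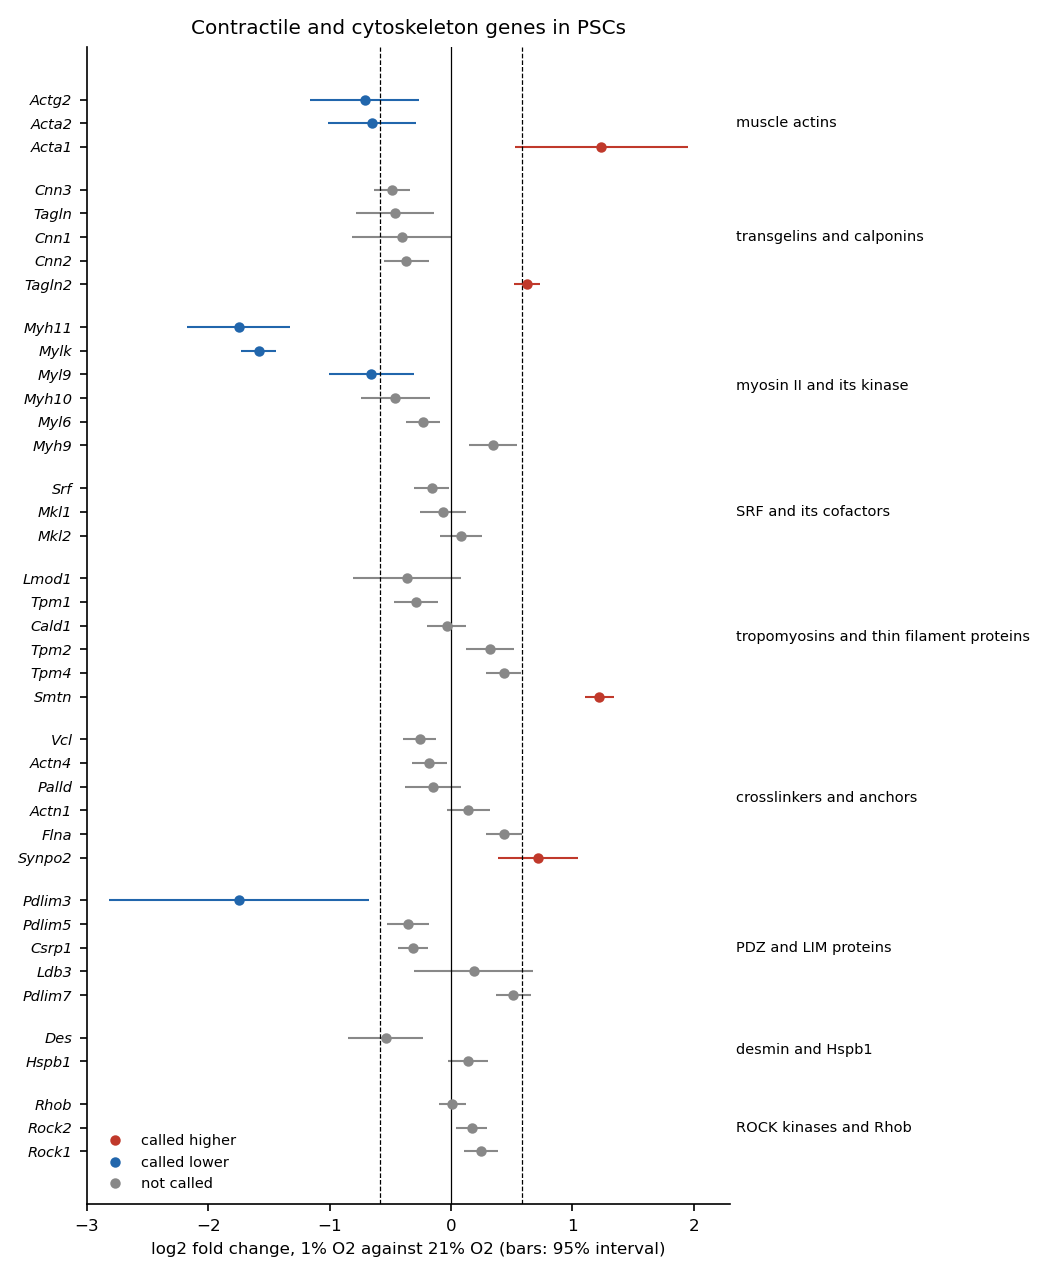
Log2 fold change (horizontal axis, 1% O2 against 21% O2) of the 39 tested members, arranged by class, with 95% intervals from the edgeR fit as bars and dashed lines at a fold of 1.5. Blue and red points are the 6 members called lower and the 4 called higher; Myh11, Mylk and Pdlim3 lie farthest to the left and Acta1 and Smtn farthest to the right.

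Promoter sequences are shown for members on which the results turn, because SRF and its cofactors bind such windows. RefSeq promoter windows of GRCm38.p6, from 250 bases before to 50 bases after the start, were matched for 36 of the 41 members. Actg2, Tagln, Myh11, Myocd and Rock1 had no entry. A CArG box (CC and GG around a run of A and T bases, read on either strand) was present for 8 of the 36 (22.2%), namely Acta1, Actc1, Cnn2, Ldb3, Myl6, Myl9, Srf and Vcl, and for 1.81% of all 27025 genes with windows of this length. The capitals below mark the box, and bases in annotated exons are left out. The stretches are chr8:123894776-123895025 (minus strand) for Acta1, chr2:156775214-156775419 (plus strand) for Myl9, chr17:46556176-46556412 (minus strand) for Srf and chr14:20929148-20929397 (plus strand) for Vcl, each upstream of its gene.
Acta1: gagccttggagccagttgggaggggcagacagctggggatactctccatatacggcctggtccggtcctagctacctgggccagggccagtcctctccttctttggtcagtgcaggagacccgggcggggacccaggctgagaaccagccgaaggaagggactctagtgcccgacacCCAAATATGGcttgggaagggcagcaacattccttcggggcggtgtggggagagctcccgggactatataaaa
Myl9: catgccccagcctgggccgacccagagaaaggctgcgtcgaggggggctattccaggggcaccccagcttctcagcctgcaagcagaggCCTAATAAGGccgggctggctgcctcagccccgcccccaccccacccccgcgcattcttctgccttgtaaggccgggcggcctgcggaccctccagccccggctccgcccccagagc
Srf: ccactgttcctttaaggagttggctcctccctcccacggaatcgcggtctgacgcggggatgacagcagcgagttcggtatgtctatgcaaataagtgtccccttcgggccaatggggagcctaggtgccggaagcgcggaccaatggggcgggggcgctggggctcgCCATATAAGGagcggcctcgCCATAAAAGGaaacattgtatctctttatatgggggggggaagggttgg
Vcl: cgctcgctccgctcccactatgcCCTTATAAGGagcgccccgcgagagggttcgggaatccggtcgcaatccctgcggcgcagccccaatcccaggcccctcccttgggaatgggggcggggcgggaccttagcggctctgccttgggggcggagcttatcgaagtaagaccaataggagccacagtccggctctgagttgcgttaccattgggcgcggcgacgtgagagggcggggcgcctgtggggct
The box begins 73 bases before the start in Acta1 and 161 bases before it in Myl9, and Srf, which is known to bind its own promoter, has boxes beginning 82 and 62 bases before its start. Among the called members with a window, a box was found in Acta1, which was higher, and in Myl9, which was lower. Only exact matches were counted, so boxes with other bases are missed. The part of SRF in these changes was not tested.

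The motif CATTCC, read on either strand and bound by TEAD factors, was found for 16 of the 36 members (44.4%) and for 16.6% of all genes with windows. It was present for 3 of the 4 called higher (Acta1, Smtn and Tagln2) and for 3 of the 4 called lower that had a window (Acta2, Mylk and Pdlim3). The core ACGTG of the hypoxia response element, read on either strand, was found for 7 of the 36 (19.4%) and for 21.8% of all genes with windows. Among the 11127 tested genes with windows, the shares were 1.55% for a CArG box, 14.5% for CATTCC and 28.8% for ACGTG. None of these motifs contains another, a match is a description of the letters only, and windows of this length leave out enhancers and introns. The upstream stretches of Mylk and Smtn, which had the smallest adjusted p among the members called lower and higher, are chr16:34784700-34784920 (plus strand) and chr11:3539324-3539542 (minus strand), with CATTCC in capitals. Both lie outside exons but inside the gene bodies given by GENCODE, before the starts of shorter transcripts.
Mylk: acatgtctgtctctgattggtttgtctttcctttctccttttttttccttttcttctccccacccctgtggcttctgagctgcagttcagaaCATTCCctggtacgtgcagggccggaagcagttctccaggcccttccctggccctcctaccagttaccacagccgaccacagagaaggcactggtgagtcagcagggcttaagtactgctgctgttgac
Smtn: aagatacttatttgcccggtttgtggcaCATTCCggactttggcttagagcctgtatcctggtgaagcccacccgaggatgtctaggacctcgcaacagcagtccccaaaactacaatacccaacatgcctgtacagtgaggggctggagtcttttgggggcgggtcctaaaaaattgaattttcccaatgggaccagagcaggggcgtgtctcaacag

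Muscle actins moved in both directions. Acta2 (ENSMUSG00000035783, chr19:34241090-34255590) was measured at 256, 171 and 275 CPM in normoxic replicates 1, 2 and 3 and at 151, 131 and 165 CPM in hypoxic replicates 1, 2 and 3. All hypoxic samples lay below all normoxic samples, but normoxic replicate 2 was only slightly above hypoxic replicate 3. Its level was 1.57-fold lower at 1% O2 (log2 fold change -0.65 ± 0.16 SE, edgeR adjusted p = 0.00603), close to the threshold of 1.5, and the log2 fold change came within that threshold at -0.53 without normoxic replicate 3 and at -0.57 without hypoxic replicate 2. The normoxic samples spread by 1.61 times from lowest to highest and the hypoxic ones by 1.25 times, against a median of 1.18 and 1.14 over all tested genes. By qRT-PCR of PSCs from such cocultures, a different measure, the paper reports no effect of hypoxia on Acta2 or Tagln.

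Actg2, the γ-actin of enteric smooth muscle, followed the same order of samples, with 24.8, 16.3 and 26.0 CPM in normoxic and 14.8, 10.2 and 15.9 CPM in hypoxic replicates. The gap between the lowest normoxic and the highest hypoxic sample was small. The fit gave -0.71 ± 0.20 on the log2 scale (edgeR adjusted p = 0.0120), and -0.54 without hypoxic replicate 2, which is within the fold threshold.

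Acta1, the α-actin of skeletal muscle, was scarce and moved the other way, with 1.35, 0.835 and 1.54 CPM in normoxic and 2.24, 2.39 and 4.12 CPM in hypoxic samples. No samples overlapped, and hypoxic replicate 3 stood above the other two. The log2 fold change was 1.24 ± 0.32 (edgeR adjusted p = 0.00729). Of 27 striated muscle markers 9 were tested, of which 3 were called higher (Tnni3, Tnnt3 and Tnnc1) and 2 lower (Tnnt2 and Actn3), with a median log2 fold change of 0.62, while Ckm, Myh4, Myog, Myf5 and Pax7 had no counts. Their summed level was 22.6 to 29.8 CPM in normoxic and 22.8 to 24.5 CPM in hypoxic samples, with Actn3 the main contributor in normoxic samples. The part of such cells in the level of Acta1 was not tested. Actc1, the cardiac α-actin, had 1 count in normoxic replicate 1 and none elsewhere and was not tested. Coding sequences of the muscle actins are similar, so the division of reads among them by RSEM may be uncertain, above all for the scarce Acta1. This was not tested.

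**Figure D2:**
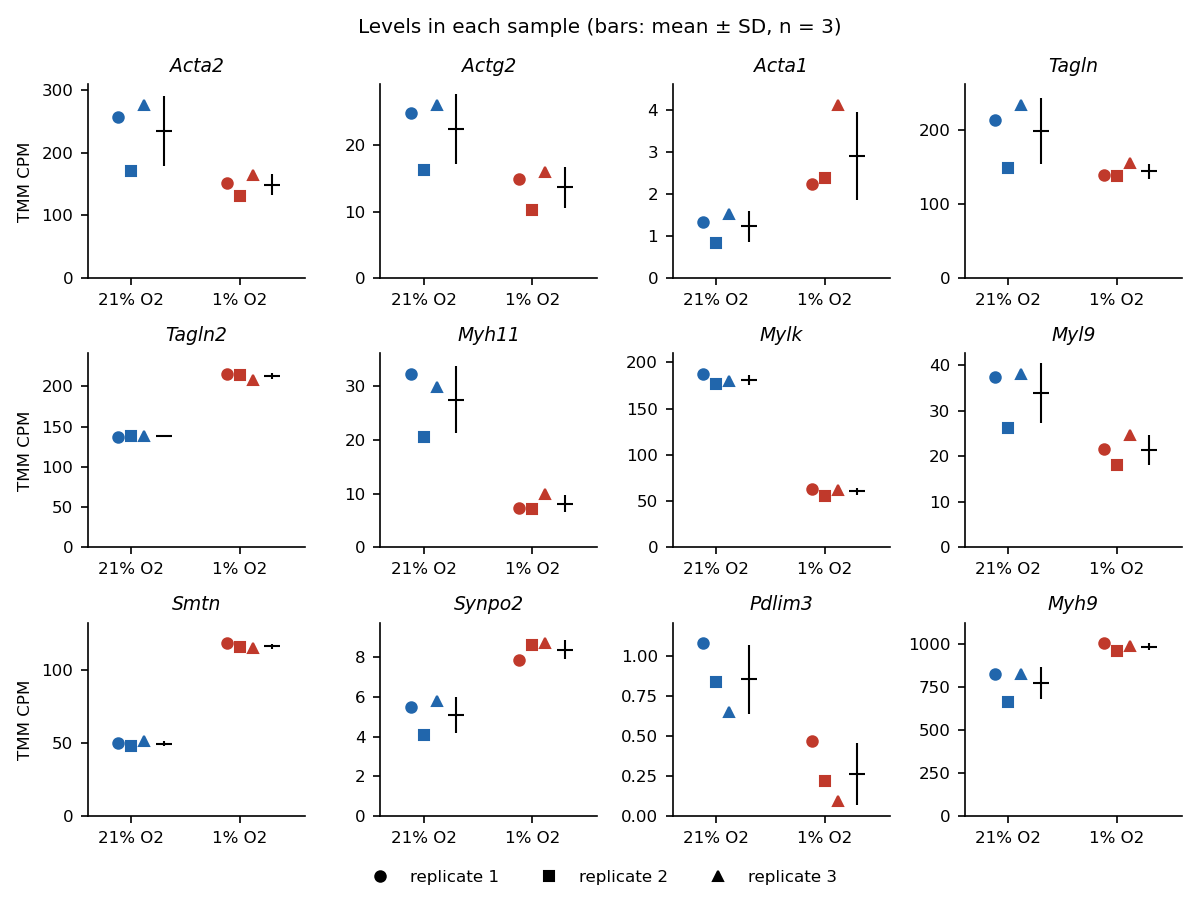
TMM-scaled CPM (vertical axes from 0) of the 10 called members, Tagln and Myh9 in each normoxic (21% O2, blue) and hypoxic (1% O2, red) sample, with marker shapes for replicate numbers and bars for mean ± SD of 3 samples. The groups are far apart for Mylk, Smtn and Tagln2, lie close together for Acta2 and Actg2, and overlap for Tagln, where normoxic replicate 2 (149 CPM) is below hypoxic replicate 3 (156 CPM).

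The transgelins, small actin-binding proteins of the calponin family, diverged. Tagln, also known as SM22α, was at 214, 149 and 234 CPM in normoxic and at 140, 138 and 156 CPM in hypoxic samples. The groups overlapped through normoxic replicate 2. Pcsk7, on the other strand, had 1039 to 1462 counts, beside at least 3559 for Tagln. The log2 fold change of -0.46 ± 0.14 (edgeR adjusted p = 0.0186) did not reach the fold threshold, and it became -0.64, past the threshold, without normoxic replicate 2. Tagln2, the broadly expressed relative, was at 137, 138 and 138 CPM in normoxic and at 215, 214 and 208 CPM in hypoxic samples, with the tightest normoxic group of the called members. Its log2 fold change was 0.62 ± 0.05 (edgeR adjusted p = 6.3e-06), and offsets for gene length and for GC content brought it to 0.51 and 0.50, inside the fold threshold. These offsets shifted the median of all genes by -0.12 and -0.07, and values under them are to be read against that shift.

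Levels per kb divide by the length of all annotated exons of a gene merged together, which can exceed the length of its transcripts. Counted per kb of exon, Tagln made up 59.7% ± 5.83 (SD, n = 3) of the summed transgelin level in normoxic and 41.6% ± 2.04 in hypoxic samples, and the ranges did not overlap. The exact two-sided permutation test gave p = 0.1, the smallest that 3 against 3 samples allow. All 3 calponins, which bind actin and restrain its sliding over myosin, had lower mean levels. Cnn2 and Cnn3 passed the adjusted p within a fold of 1.5, at log2 fold changes of -0.37 ± 0.08 and -0.48 ± 0.07 (edgeR adjusted p = 0.00337 and 0.000187). Cnn1, the smooth muscle form, went from a mean of 27.6 ± 7.18 to 20.8 ± 2.89 CPM (SD, n = 3) with overlapping samples and an edgeR adjusted p of 0.0801.

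Log2 fold changes below -1 were found for Mylk, Myh11 and Pdlim3, and the first 2 are the kinase of the myosin light chain and the smooth muscle heavy chain. Mylk (ENSMUSG00000022836, chr16:34745210-35002420) was at 187, 177 and 180 CPM in normoxic and at 63.4, 55.7 and 62.1 CPM in hypoxic samples. The groups were far apart and each was tight. Mylk was 3.0-fold lower (log2 fold change -1.58 ± 0.06, edgeR adjusted p = 1.35e-07), and only 3.25% of tested genes had a log2 fold change as low or lower.

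Myh11, the smooth muscle myosin heavy chain, was at 32.2, 20.5 and 29.9 CPM in normoxic and at 7.34, 7.12 and 9.99 CPM in hypoxic samples. Even the lowest normoxic sample was above every hypoxic one. The log2 fold change was -1.75 ± 0.19 (edgeR adjusted p = 4.58e-05), a 3.36-fold lower level. Myl9, the regulatory light chain that Mylk phosphorylates, was at 37.5, 26.2 and 38.1 CPM in normoxic and at 21.7, 18.1 and 24.7 CPM in hypoxic samples. These groups were separated only by the narrow gap between normoxic replicate 2 and hypoxic replicate 3. Its log2 fold change of -0.66 ± 0.15 (edgeR adjusted p = 0.00482) lay between -0.82 and -0.55 with single samples left out, and it came within the fold threshold without normoxic replicate 1, normoxic replicate 3 or hypoxic replicate 2.

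The nonmuscle myosin heavy chains differed from each other in direction. Myh9, the main heavy chain of nonmuscle myosin II, was at 827, 663 and 826 CPM in normoxic and at 1003, 960 and 984 CPM in hypoxic samples. All hypoxic values were above the normoxic ones, at a log2 fold change of 0.35 ± 0.09 (edgeR adjusted p = 0.00741) that was within the fold threshold. Myh10, its relative, was at 81.9, 57.7 and 77.2 CPM in normoxic replicates 1, 2 and 3 and between 49.0 and 58.7 CPM in hypoxic samples, highest in replicate 1, which overlapped. The log2 fold change of Myh10 was -0.46 ± 0.13 (edgeR adjusted p = 0.0103). Myl6, the essential light chain shared by these myosins, had a log2 fold change of -0.23 ± 0.06 with no overlap (edgeR adjusted p = 0.00979).

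Among myosin II heavy chains, counted per kb, the share of Myh11 was 5.10% ± 0.537 (SD, n = 3) in normoxic and 1.31% ± 0.254 in hypoxic samples. Myh9 held 85.0% ± 1.00 and 92.5% ± 0.389, and Myh10 held 9.78% ± 0.520 and 6.11% ± 0.478. None of these ranges overlapped, and each exact permutation p was 0.1, the smallest possible. Among the 6 actins, the Acta2 share of 11.3% ± 2.27 in normoxic and 9.31% ± 1.17 in hypoxic samples overlapped (exact permutation p = 0.3), whereas the small Acta1 share of 0.0856% ± 0.0220 and 0.261% ± 0.0944 did not (exact permutation p = 0.1). Actb and Actg1, the cytoplasmic actins, which are not members, held most of the actin level at both oxygen levels, and the Actg1 share of 36.4% ± 1.14 in normoxic and 40% ± 0.896 in hypoxic samples did not overlap (exact permutation p = 0.1).

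**Figure D3:**
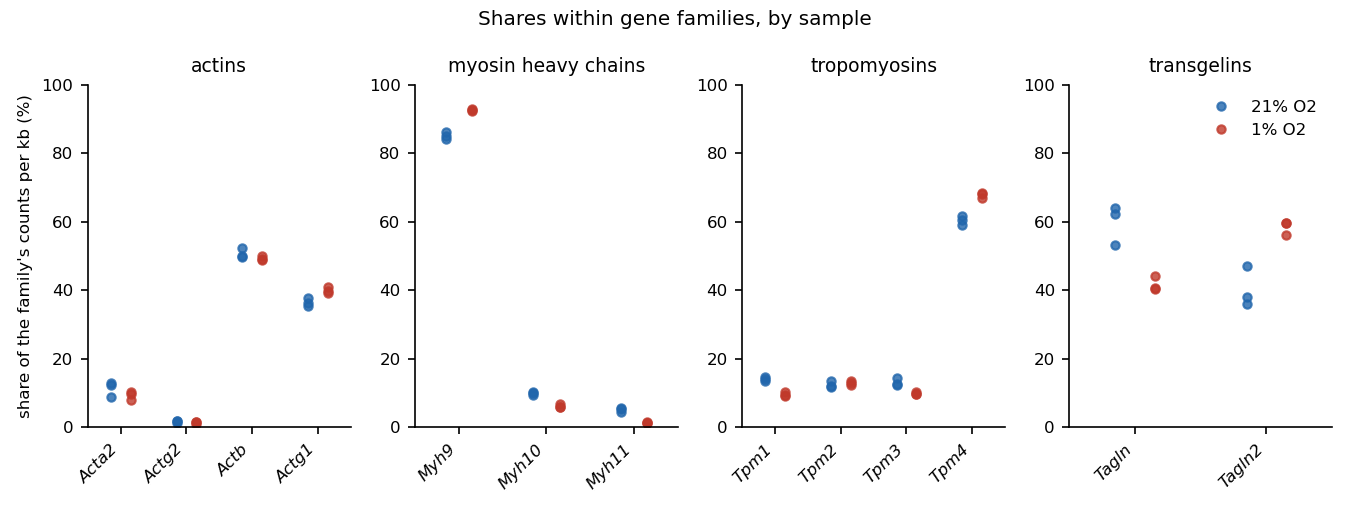
Share of each gene in the summed level of its family (vertical axis, percent, counts per kb of exon) in the 3 normoxic (blue) and 3 hypoxic (red) samples, for genes with a normoxic mean of at least 0.5%. Tagln and Tagln2 exchange their order, Myh9 and Tpm4 take larger shares at 1% O2, and the Acta2 shares overlap.

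Neither Srf nor its tested cofactors were called. Srf was at 42.4, 38.4 and 40.0 CPM in normoxic and at 38.3, 34.8 and 35.1 CPM in hypoxic samples. The hypoxic values were all below the normoxic ones, by a narrow margin, at a log2 fold change of -0.16 ± 0.07 (95% interval -0.31 to -0.01, edgeR adjusted p = 0.0566). Its edgeR adjusted p was 0.000244 at a log2 fold change of -0.49 with the GC content offset and 0.0266 without normoxic replicate 2, still within a fold of 1.5. Mkl1 had 44.7, 37.0 and 41.3 CPM in normoxic and 41.1, 35.7 and 40.8 CPM in hypoxic samples, which overlapped, with a log2 fold change of -0.07 (95% interval -0.26 to 0.12), which was -0.28 with the GC content offset (edgeR adjusted p = 0.0299). Sgsm3, on the other strand of Mkl1, had 686 to 967 counts beside at least 976 for Mkl1. Mkl2 had 39.3, 33.9 and 35.5 CPM in normoxic and 41.4, 37.9 and 36.0 CPM in hypoxic samples, also overlapping, with a log2 fold change of 0.08 (95% interval -0.09 to 0.26), which was -0.015 with the gene length offset, a move no larger than the shift of all genes in that setting. The intervals of Mkl1 and Mkl2 lie wholly within a fold of 1.5. Myocd, the smooth muscle and heart cofactor, had 2 counts in every normoxic sample and 1, 0 and 2 counts in the hypoxic samples, all under the 3-count limit, and a difference was not detectable at this depth.

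In the thin filament group the clearest change was in Smtn, which encodes smoothelin, a protein of contractile smooth muscle filaments. Smtn (ENSMUSG00000020439, chr11:3517523-3540612) was at 49.9, 47.7 and 51.5 CPM in normoxic and at 118, 115 and 115 CPM in hypoxic samples. The 2 groups were tight and far apart. It rose 2.33-fold (log2 fold change 1.22 ± 0.05, edgeR adjusted p = 2.11e-07). An overlapping gene on the other strand, Gm11946, had 4 to 8 counts in normoxic and 34 to 55 counts in hypoxic samples, which is small beside the at least 1256 counts of Smtn. The strand setting of the counting is not given in the sources used here, so reads of overlapping genes cannot be told apart.

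Tropomyosins, which wind along actin and decide which proteins gain access to it, also moved both ways, all within a fold of 1.5. Tpm4, the highest member per kb at both oxygen levels, was at 457, 397 and 426 CPM in normoxic and at 575, 575 and 578 CPM in hypoxic samples. Hypoxic samples were nearly equal and all higher, with a log2 fold change of 0.43 ± 0.06 (edgeR adjusted p = 0.000333). Tpm2 had a log2 fold change of 0.32 ± 0.09 and Tpm1 one of -0.29 ± 0.08, both without overlap (edgeR adjusted p = 0.00971 and 0.0114). Per kb, the Tpm4 share of the 4 tropomyosin genes went from 60.4% ± 1.3 to 67.7% ± 0.802 (SD, n = 3) and the Tpm1 share from 14.1% ± 0.599 to 9.58% ± 0.513, without overlap (exact permutation p = 0.1 for each). Cald1, which encodes the actin- and myosin-binding caldesmon, had overlapping samples and a log2 fold change of -0.04 (95% interval -0.20 to 0.12), whose sign turned without normoxic replicate 1. Lmod1, a leiomodin that seeds actin filaments in smooth muscle, had a log2 fold change of -0.36 with a wide interval of -0.80 to 0.08.

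Of the crosslinkers and anchors, Synpo2, a Z-disc protein also called myopodin, was the only one of 6 that was called. It was at 5.47, 4.06 and 5.76 CPM in normoxic and at 7.81, 8.58 and 8.67 CPM in hypoxic samples, with no overlap. The log2 fold change was 0.72 ± 0.15 (edgeR adjusted p = 0.00224) and fell to 0.57, inside the fold threshold, without normoxic replicate 2. Flna, which crosslinks actin into networks, was at 838, 752 and 850 CPM in normoxic and above 1000 CPM in all hypoxic samples, at a log2 fold change of 0.44 ± 0.07 (edgeR adjusted p = 0.000396). Vcl, the adhesion protein vinculin whose upstream CArG box is printed above, had a log2 fold change of -0.26 ± 0.06 with lower values in all hypoxic samples (edgeR adjusted p = 0.005). Its neighbor on the other strand, Ap3m1, had 1007 to 1333 counts. Actn4, an α-actinin, had a log2 fold change of -0.18 ± 0.06 (edgeR adjusted p = 0.0359), while Actn1 (0.14, 95% interval -0.04 to 0.32) and Palld (-0.15, 95% interval -0.38 to 0.08) overlapped.

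PDZ and LIM proteins link actinin to kinases and to adhesions. Pdlim3 was the only called member of the group and the one with the fewest reads among the 39, with 28, 22 and 16 counts in normoxic and 12, 7 and 3 counts in hypoxic samples. The groups did not overlap, and hypoxic replicate 3 was at the 3-count limit. The log2 fold change of -1.75 ± 0.47 (edgeR adjusted p = 0.0103) had an interval of -2.82 to -0.67. Pdlim5 (-0.36 ± 0.08) and Csrp1 (-0.31 ± 0.05), a LIM protein of smooth muscle, were lower and Pdlim7 (0.51 ± 0.06) was higher on the log2 scale, each without overlap and within a fold of 1.5 (edgeR adjusted p = 0.00314, 0.000943 and 0.000118). Ldb3 had under 2 CPM in every sample, and its samples overlapped.

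Des, the intermediate filament protein desmin and a marker of stellate cells, was at 19.0, 13.2 and 17.6 CPM in normoxic and at 12.4, 10.5 and 11.3 CPM in hypoxic samples. All hypoxic values were lower, at a log2 fold change of -0.54 ± 0.14 (edgeR adjusted p = 0.00729), just within the fold threshold. It was past that threshold at -0.69 without normoxic replicate 2, at -0.60 without hypoxic replicate 1 and at -0.69 with the GC content offset. With the gene length offset it was at -0.67, which is inside the threshold when read against the shift of all genes. Hspb1, a small heat shock protein that binds actin, overlapped, at a log2 fold change of 0.14 (95% interval -0.02 to 0.31), whose sign turned with the GC content offset.

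None of Rock1, Rock2 and Rhob was called. Rock1 and Rock2, which inhibit myosin phosphatase and so sustain contraction, had log2 fold changes of 0.25 ± 0.06 and 0.17 ± 0.06, with all hypoxic samples above the normoxic ones (edgeR adjusted p = 0.00703 and 0.0248). Rhob, a small GTPase, was at 269 to 277 CPM in normoxic and at 272 to 282 CPM in hypoxic samples. Its log2 fold change was 0.01 (95% interval -0.10 to 0.13), with overlapping samples. Its sign turned with 6 of the alternative settings, in 3 of which (upper-quartile normalization, no filter and the gene length offset) the move was about the size of the shift of all genes.

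Ordered by level per kb of exon, Tpm4 (194 ± 13.6 CPM per kb, SD, n = 3) and Myl6 (141 ± 7.37) led in normoxic samples, followed by Rhob, Csrp1, Acta2 and Tagln. Acta2 (107 ± 25.3) and Tagln (100 ± 22.3) did not differ from each other or from Csrp1 (107 ± 4.49) beyond their spread. In hypoxic samples Tpm4 (261 ± 0.909) and Myl6 (120 ± 4.93) again led, Acta2 (67.8 ± 7.65) was in place 9 instead of 5, and Tagln2 (102 ± 1.77) was in place 5 instead of 9. Mylk moved from place 20 to place 29 and Smtn from place 24 to place 18. The order of genes depends on the merged exon length, which is 3187 bases for Myl6. An order by transcript length was not tested.

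Samples numbered 2 were the lowest of their group for most members. Normoxic replicate 2 was the lowest normoxic sample in 34 of the 39 members, against 34.2% of all tested genes, and hypoxic replicate 2 was the lowest hypoxic sample in 27, against 34.8%. In 25 members (64.1%) both were lowest, which held for 13.9% of all tested genes. In related lists, both were lowest in 53.8% of the YAP/TEAD genes, 46.7% of the adhesion plaque genes and 50% of the fibroblast markers. The share was 30% for other actin cytoskeleton genes and 20% for smooth muscle and pericyte markers. Both were highest in 2 of the fibroblast markers and in 2 of the other actin cytoskeleton genes. The median member had a log2 ratio of -0.17 in normoxic and -0.09 in hypoxic replicate 2 over the mean of the other samples of its group, and the ratio for Acta2 was -0.64 and -0.27. Macrophage markers went the other way, with all 14 tested markers highest in replicate 2 at both oxygen levels, and normoxic replicate 2 had the highest summed macrophage level (1837 CPM). The part of macrophage RNA in the spread of the members was not tested.

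**Figure D4:**
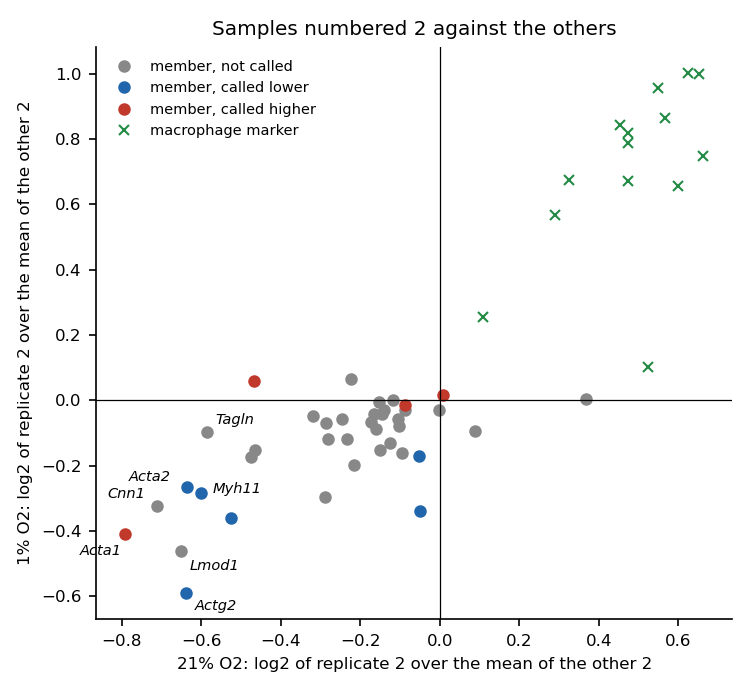
Log2 ratio of replicate 2 over the mean of the other 2 samples of its group, in normoxic (horizontal axis) and hypoxic samples (vertical axis), for the 39 tested members (circles, colored by call) and the 14 tested macrophage markers (crosses). Most members lie at the lower left, below 0 on both axes, with Acta2, Actg2, Acta1 and Cnn1 far out, and all macrophage markers lie at the upper right, above 0 on both.

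Without both samples numbered 2, a fit added after the data were seen, 11 members were called, 3 higher and 8 lower. Acta2 was then at -0.75 on the log2 scale, Tagln (-0.60) and Des (-0.63) passed the threshold, and Synpo2 (0.56) no longer did. Thus the lower level of Acta2 was as large without these samples.

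Of 20 other actin cytoskeleton genes tested, 2 were called higher and 2 lower, with a median log2 fold change of -0.13. The LIM gene Pdlim4 was among the higher ones (1.27 ± 0.07 on the log2 scale), and the myosin light chain genes Myl6b (-1.07 ± 0.15) and Myl12b (-0.76 ± 0.05) were the lower ones. Of 15 adhesion plaque genes, 3 were called higher (Lims2 and Fermt2 foremost, at 1.33 ± 0.10 and 0.88 ± 0.06, both partners of integrin-linked signaling, and Bcar1 at 0.61 ± 0.07) and none lower by edgeR, although 4 were lower at an adjusted p under 0.05 with no fold threshold. Of 13 YAP/TEAD genes, only Amotl2, an angiomotin, was called (-0.90 ± 0.10). These counts stand beside the 34.2% of all tested genes that were called, 18.9% higher and 15.3% lower. The medians of the adhesion plaque and YAP/TEAD lists were 0.20 and 0.002.

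Markers of smooth muscle and pericytes, which share several members' contractile program, had no common direction. Of 10 tested, 2 were higher and 3 lower, and their summed level was 159 to 178 CPM in normoxic and 169 to 192 CPM in hypoxic samples. None of the 13 was without counts. Endothelial markers summed to 8.65 to 13.8 CPM in normoxic and 13.9 to 19.8 CPM in hypoxic samples, and of 4 tested, Tek was called higher and Kdr lower. Whether these cells contributed to the level of Myh11 or Mylk was not tested.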

How the data were processed

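PSC RNA from 6 cocultures was sequenced, 3 per oxygen level. The authors trimmed reads, mapped them to GRCm38 with STAR (2.6.1b) and deposited RSEM (1.3.1) expected counts, versions being those in the submitters' processing notes. These estimated counts were not normalized, and all were whole numbers. Annotation release and strand setting are not given in the sources used here. GENCODE M21 held 55240 of the 55426 identifiers, and 5 transgene features had no counts.

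Genes were filtered with filterByExpr (16207 kept), scaled by TMM and tested with edgeR's quasi-likelihood test (edgeR 4.0.16, limma 3.58.1, R 4.3.3), without a replicate block, with Benjamini-Hochberg adjustment. Calls required a fold change beyond 1.5 and an adjusted p under 0.05, thresholds taken from the study's methods. The SE of a log2 fold change was its size over the root of its F statistic. CPM divide counts by the TMM-scaled total, and 3-count limits cover counting error only, since reads are not independent molecules. Family shares were compared with exact two-sided permutation tests. The fit was tested on simulated data.

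The members and lists were chosen with earlier results of these data known. All called members, plus Acta2, Tagln, Myh9, Myh10, Myh11, Srf, Mkl1, Mkl2 and Myocd, were given by sample, and for each related list up to 2 called genes at either end were named; values of Tpm4, Flna, Des, Rhob, Bcar1 and Car9 by sample or range were chosen after they were seen. Alternatives were a replicate block, 2 other normalizations, 2 other filters, DESeq2 (1.42.0), limma-voom, offsets for gene length and GC content, other thresholds and each sample left out. The single-cell, qRT-PCR and protein experiments were not analysed here, and 1 related gene list and 1 gene of another are not reported here.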

Additional observations from a re-analysis of the deposited data

How the results depend on the processing

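Over 623 recomputed log2 fold changes of single members, 594 kept their direction and their call or lack of one, 10 lost the call, 10 gained one and 9 changed sign, all of the last in members that were not called. A call needs both the fold and the adjusted p, and 40 of the 594 changed their side of the adjusted p alone, all in members that were not called. Of the 10 called members, Acta1, Myh11, Mylk, Smtn and Pdlim3 kept their call in every alternative in which they were tested, and Pdlim3 was not tested with a filter of at least 1 CPM in 3 samples. With no fold threshold, 10168 genes (5150 higher and 5018 lower), 28 members (11 higher and 17 lower) and 46 genes of the 4 related lists were called, and beyond a fold of 2 the counts were 3156 (1929 and 1227), 5 (2 and 3) and 8. With each sample left out in turn, between 7 and 13 members were called, 3 to 4 higher and 3 to 10 lower, with 10 lower without normoxic replicate 2 (Tagln, Cnn1, Myh10 and Des added) and 3 lower without hypoxic replicate 2 (Acta2, Actg2 and Myl9 lost). The gene length offset shifted the median of all genes by -0.12 on the log2 scale and called 2684 genes higher and 2964 lower; the log2 fold change of Cnn3 was then -0.61, past the fold threshold, and that of Tagln2 was 0.51, both to be read against that shift, as are Des, Mkl2 and Rhob. The median shifted by -0.07 with the GC content offset and by -0.023 with upper-quartile normalization and with no filter. Changes of sign were seen for Mkl2 (-0.015, gene length offset), Cald1 (0.019 without normoxic replicate 1, within a range of -0.093 to 0.019 with single samples left out), Hspb1 (-0.15, GC content offset) and Rhob (-0.011 with upper-quartile normalization and -0.011 with no filter, -0.11 with the gene length and -0.12 with the GC content offset, -0.0037 without normoxic replicate 3 and -0.0050 without hypoxic replicate 1, within a range of -0.0050 to 0.019 with samples left out). The hypoxic minus the normoxic share, in percentage points, also depended on the division by length. With no length division it was 5.60 for Myh9 (7.54 per kb) and -2.34 for Myh11 (-3.80 per kb). For Tpm1, Tpm2 and Tpm4 it was -6.70, 1.55 and 9.26 (-4.50, 0.49 and 7.33 per kb). The cause of these differences between settings was not tested beyond what each setting changes.

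With the replicate number as a block, 10 members were called, 4 higher and 6 lower, and no member's call changed. Within a fold of 1.5, Cnn1, Srf, Lmod1 and Palld then had an edgeR adjusted p under 0.05 (0.00664, 0.0389, 0.0118 and 0.0315), which they did not have without the block. Over all genes the block gave 3072 higher and 2500 lower. Deviations of same-numbered samples correlated at 0.14, 0.14 and 0.04, and every sample correlated best with its own number, a hint from the data and not from the design.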
